A study of Canis lupus familiaris with 8 samples.

Results

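CCR9 is the chemokine receptor of T cells for CCL25, a ligand made in the small intestine and the thymus. Its transcript was followed here in blood T cells of 4 healthy Beagles, taken from a sort for the αβ T cell receptor. Dog 1 was female and 5 years old. The other dogs were male, 7 years old in the case of dogs 2 and 3 and 9 years old in that of dog 4. Each dog gave 1 droplet library of gene expression and 1 library of T cell receptor rearrangements, without any treatment, and the dog was the replicate throughout. They are blood cells only, with no tissue sample beside them.

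The row of CCR9 was read as raw UMIs, that is as counted molecules, in 31909 cells with 500 to 20000 UMIs and at most 10% mitochondrial UMIs. A cell with at least 1 CCR9 UMI was called CCR9+ and a cell with none CCR9-zero, the latter including cells in which the transcript went unseen. In all, 4526 of the 31909 cells were CCR9+. Comparisons were made within CD4 single-positive cells, which hold a UMI of CD4 and none of CD8A, and within CD8A single-positive cells, which hold the reverse. CCR9+ cells numbered 2031 of 13247 CD4 single-positive cells and 715 of 6427 CD8A single-positive cells. The other CCR9+ cells held UMIs of neither lineage gene, 1589 of 11510 cells, or of both, 191 of 725 cells.

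As background, T cells that meet their antigen in the lymph nodes of the gut are instructed by retinoic acid, a product of vitamin A made by local dendritic cells. They then put CCR9 and the integrin of the chains α4 and β7 on their surface, which together direct them from the blood into the wall of the small intestine. The α4 chain (ITGA4) can pair with β7 (ITGB7) or with β1 (ITGB1), and only the former pair is the gut address. Other addresses are CCR7 for lymph nodes, and CCR4, CCR10 and the fucosyltransferase FUT7 for skin.

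The libraries held 7428 to 8873 barcodes, and kept cells had medians of 3599 to 3931.5 UMIs per dog. Pairs of libraries shared 87 to 120 barcodes, 1.17% to 1.43% of the smaller library. The gene list that came with dog 1 had another length than its matrix, and the list of the other dogs was used for it. CD3E, a chain of the receptor complex, stood at 1215 to 1486 CPM (counts per 1000000 UMIs summed over the cells of a group) in CCR9+ CD4 cells and at 1120 to 1326 CPM in CCR9+ CD8A cells, against 1172 to 1369 CPM and 1187 to 1354 CPM in the CCR9-zero cells. No doublet caller was run. Cells with UMIs of both lineage genes lay outside the comparisons, and cells with more than 1 TRB rearrangement were left out as an alternative. Such cells made up 1.33% to 2.55% of CCR9+ and 2.13% to 3.63% of CCR9-zero CD4 cells, and 0.922% to 12% against 1.60% to 6.18% in the CD8A lineage.

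The findings turn in large part on TRB clones, so the junctions of the leading clones are shown first. A clone was taken as all cells of a dog with the same TRBV gene, TRBJ gene and junction, among cells with exactly 1 productive TRB rearrangement. The 2 CD4 clones and 3 CD8A clones below are among those with most CCR9+ single-positive cells, and the last 4 are among the largest clones of their lineage in which no cell had a CCR9 UMI. Each junction is the deposited nucleotide sequence, read 5′ to 3′, and the capitals mark the bases that lie between the called V and J parts.
CD4 clone of dog 4, TRBV16 and TRBJ2-1, 51 of 71 CD4 single-positive cells CCR9+: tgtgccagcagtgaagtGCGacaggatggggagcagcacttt
CD4 clone of dog 3, TRBV15 and TRBJ1-2, 33 of 56 cells CCR9+: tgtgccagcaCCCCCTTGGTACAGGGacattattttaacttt
CD8A clone of dog 4, TRBV3-1 and TRBJ2-1, 46 of 119 CD8A single-positive cells CCR9+: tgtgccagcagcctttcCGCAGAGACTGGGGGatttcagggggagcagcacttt
CD8A clone of dog 3, TRBV7 and TRBJ2-1, 23 of 34 cells CCR9+: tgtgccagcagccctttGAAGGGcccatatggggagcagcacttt
CD8A clone of dog 2, TRBV26 and TRBJ1-6, 19 of 29 cells CCR9+: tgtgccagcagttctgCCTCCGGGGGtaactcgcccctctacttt
CD4 clone of dog 2, TRBV7 and TRBJ2-6, 0 of 12 cells CCR9+: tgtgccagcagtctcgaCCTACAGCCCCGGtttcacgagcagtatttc
CD8A clone of dog 3, TRBV28 and TRBJ1-6, 0 of 122 cells CCR9+: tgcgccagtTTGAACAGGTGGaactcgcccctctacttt
CD8A clone of dog 3, TRBV25 and TRBJ2-5, 0 of 116 cells CCR9+: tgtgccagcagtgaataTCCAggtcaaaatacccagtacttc
CD8A clone of dog 3, TRBV1 and TRBJ1-4, 0 of 99 cells CCR9+: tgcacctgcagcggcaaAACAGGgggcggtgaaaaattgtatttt

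The first question was how common the CCR9 transcript was in each lineage. Among CD4 single-positive cells, 2.05% of cells of dog 1, 20.6% of dog 2, 13.0% of dog 3 and 26.3% of dog 4 were CCR9+, a mean of 15.5% ± 10.5 (SD, n = 4). Dog 1 was the lowest, with an exact 95% interval of 1.62% to 2.56% against 11.8% to 14.3% in dog 3, the next lowest. Such intervals cover counting error only, and cells of a clone are not independent samples. Summed over cells, CCR9 stood at 8.50, 91.5, 59.9 and 114 CPM in the CD4 cells of dogs 1 to 4.

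Among CD8A single-positive cells, the shares of dogs 1 to 4 were 7.24%, 12.8%, 9.52% and 13.1%, a mean of 10.7% ± 2.79 (SD, n = 4). The summed levels were 29.3, 53.1, 42.2 and 52.1 CPM. The dogs were closer to each other here than in the CD4 lineage, and dog 1 was again the lowest. Its female sex, its age, its library and its replaced gene list cannot be told apart.

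CCR9 was higher in CD4 than in CD8A cells in dogs 2, 3 and 4 and lower in dog 1, and the lineages did not differ beyond the spread between dogs. The log2 fold change was 0.51 (SE 0.50; edgeR quasi-likelihood test with Benjamini-Hochberg adjustment over all genes, adjusted p = 0.539), where 27.5% of the 10120 genes tested were called. Without dog 1 it was 0.82 (SE 0.12, edgeR adjusted p = 0.00491). Restricted to expanded clones, those of 2 or more cells, the CD4 level was above the CD8A level (log2 1.58, SE 0.18, edgeR adjusted p = 0.00125), whereas in singleton clones the log2 difference was 0.02 (SE 0.25, edgeR adjusted p = 0.982).

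The transcript was sparse in each cell. In the single-positive lineages 46.7% to 65.8% of CCR9+ cells of a dog held exactly 1 CCR9 UMI, and the highest count in any cell was 10. CCR9+ cells were also the deeper cells, with medians of 4275 to 5098 UMIs against 3734 to 3859 in CCR9-zero CD4 cells, and of 5055.5 to 5645 against 3478 to 3839 in the CD8A lineage. After each cell was thinned to 2000 UMIs, 9.57% ± 6.48 of CD4 and 5.94% ± 1.11 of CD8A cells (SD, n = 4) still held a CCR9 UMI, with 1465 CD4 and 715 CD8A cells below that depth left out.

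The CPM level also moved with depth. In CD8A cells, CCR9 averaged 18.1 CPM among cells of 3000 to 3999 UMIs and 83.3 CPM among cells of 6000 UMIs or more. In CD4 cells the corresponding means were 44.9 and 76.4 CPM. The shallowest CD4 cells, below 2000 UMIs, held 15.4, 206, 50.96 and 169 CPM in dogs 1 to 4, a mean of 110 ± 91.5 (SD, n = 4), which was above the cells of 6000 UMIs or more in dogs 1, 2 and 4 and below them in dog 3. Whether cell size or RNA quality has a part in these levels was not tested.

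The background of free RNA was read in the cluster with least CCR9, cluster 11 of FCER1G+ innate-like CD8-like cells. There 7 of 1319 cells, 0.531%, had a CCR9 UMI at a median depth of 3542 UMIs, and the mean level over dogs was 1.64 CPM. Cluster 18, which has the same name, stood at 35.5 ± 30.2 CPM (SD, n = 4) at a median depth of 7432 UMIs. Cluster 11 was picked as the lowest of 22, so that shares of whole lineages lie above it by that choice. The share that free RNA gives was not tested otherwise.

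The second question was which T cells carry the transcript. Clusters were rebuilt from all genes except CCR9 itself, and genes were scaled within each dog. The level in each cluster is given as a description. Of 22 clusters, 4 exceeded 100 CPM as a mean over dogs. These 4 held 20.2% of the cells, 78.8% of the CCR9+ cells and 82.8% of the CCR9 UMIs. At the other end, 7 clusters lay below 10 CPM and held 34.1% of the cells but 3.45% of the CCR9+ cells. Both sets were picked by their CCR9 level, so that these shares follow in part from the choice.

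**Figure D1:**
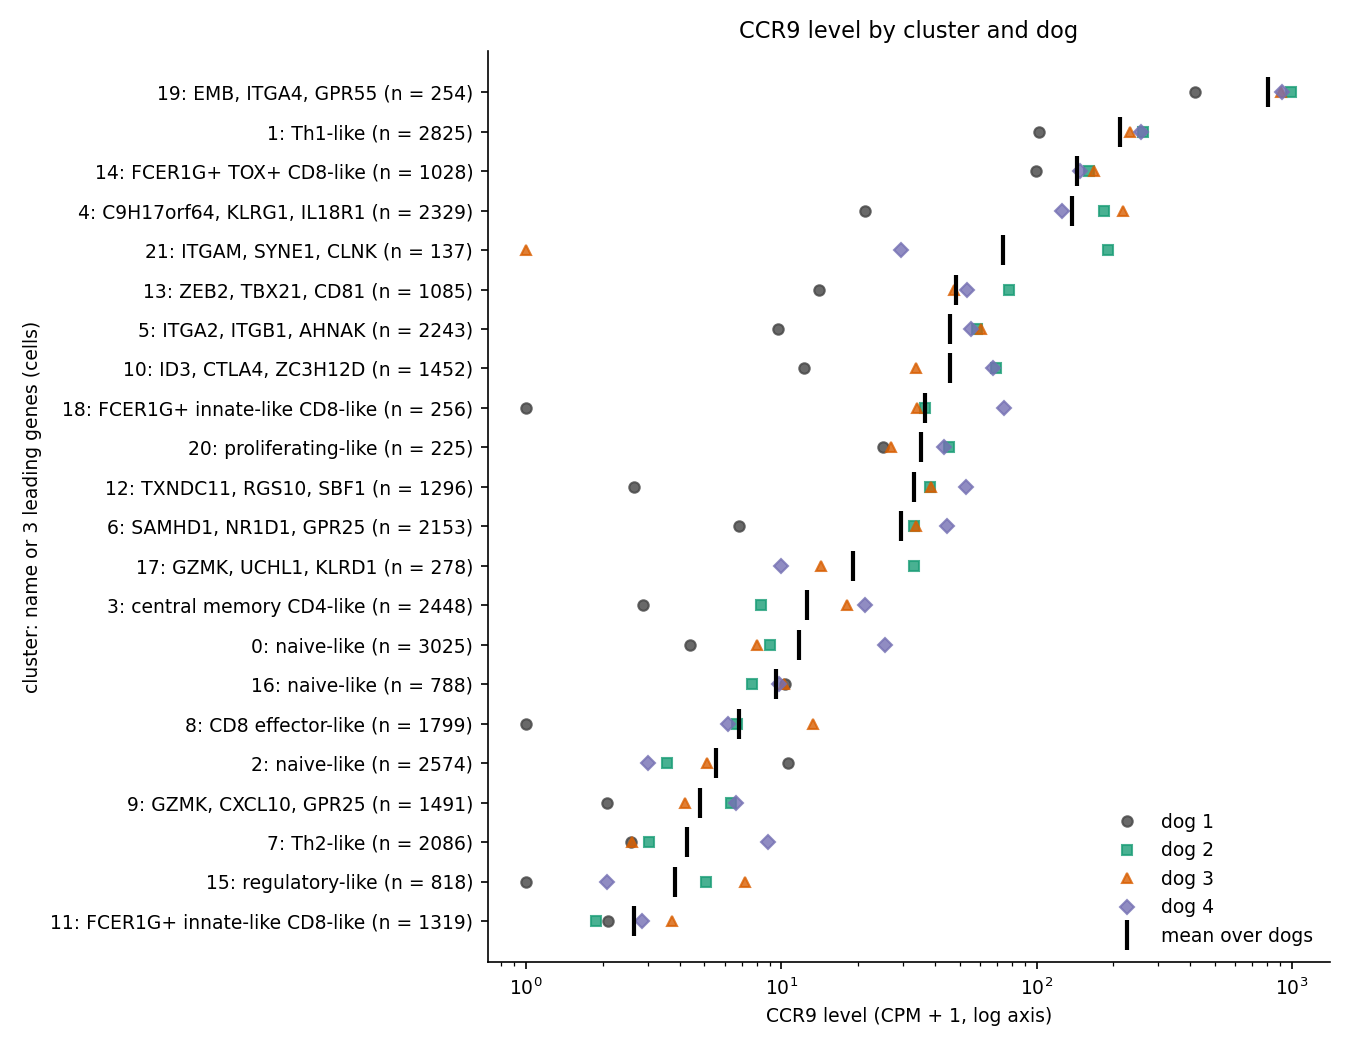
CCR9 level of each of the 22 clusters (x axis, CPM + 1 on a log scale) for each dog with at least 20 cells in the cluster (points) and as the mean over dogs (bars). The 4 uppermost clusters exceed 100 CPM as means, and in cluster 19, cluster 1, cluster 14 and cluster 4 dog 1 is the lowest of the 4 dogs.

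The highest level was that of cluster 19, a small group of 254 shallow cells with a median of 1351 UMIs, led by the adhesion protein EMB, ITGA4 and GPR55. CCR9 averaged 808 ± 264 CPM there (SD, n = 4), and 52.8% of its cells were CCR9+ as a mean over dogs. The cluster stayed without a name, and its median share of mitochondrial UMIs was 5.51% against 1.18% in the next cluster. Dog 1 had the lowest value, 418 CPM, and the highest was 995 CPM. Such a peak depends on the clustering, and with 2000 variable genes the highest of 23 clusters stood at 208 CPM.

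Next came the Th1-like cluster of 2825 cells, led by CXCR3 and IL18R1 among others, at 212 ± 74.7 CPM (SD, n = 4). On average 51.7% of its cells were CCR9+, with 101 CPM in the lowest dog and 259 CPM in the highest. It was mostly CD4 cells, and it alone held 37.9% of all CCR9+ cells. Its CD4 single-positive cells were CCR9+ in 22.1%, 65.9%, 55.4% and 65.2% of cells in dogs 1 to 4.

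Cluster 14, FCER1G+ TOX+ CD8-like cells, followed at 143 ± 30.4 CPM (SD, n = 4) over 1028 cells. In its CD8A single-positive cells 26.7%, 50.9%, 47.1% and 44.8% were CCR9+ in dogs 1 to 4. Cluster 4, an unnamed group of 2329 cells led by C9H17orf64, the lectin receptor KLRG1 and IL18R1, reached 136 ± 85.9 CPM (SD, n = 4). Both lineages were in it, with CD8A cells as 25.9% of its single-positive cells, and dog 1 stood at 20.4 CPM against 217 CPM in the highest dog. The levels of clusters 1, 14 and 4 overlapped over the dogs, so that their order is within the spread.

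Below these lay a broad middle. It ran from 72.7 ± 102 CPM in cluster 21, in which 1 of 3 dogs had no CCR9 UMI, to 10.7 ± 9.35 CPM in the naive-like cluster 0, and neighbours in this order overlapped. The proliferating-like cells stood at 34.3 ± 10.7 CPM and the central memory CD4-like cells at 11.6 ± 8.51 CPM. The 7 low clusters included naive-like CD4 and CD8A cells (4.56 ± 3.46 and 8.51 ± 1.24 CPM), CD8 effector-like cells (5.80 ± 5.04 CPM), Th2-like cells (3.27 ± 3.08 CPM) and regulatory-like cells (2.83 ± 2.82 CPM), each as SD with n = 4.

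Inside the 4 high clusters, 16.8%, 61.1%, 54.8% and 61.2% of CD4 single-positive cells were CCR9+ in dogs 1 to 4. Outside them the shares were 1.08%, 5.18%, 4.11% and 7.66%. In CD8A single-positive cells the shares were 25.5%, 54.6%, 59.4% and 46.1% inside and 1.87%, 3.02%, 3.40% and 3.38% outside. These clusters were chosen by their CCR9 level, so that higher shares inside them follow from the choice. Dog 1 had 6.18% of its CD4 cells there against 17.5% to 34.8% in the other dogs, and 22.7% of its CD8A cells against 10.9% to 22.8%.

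Over the 22 clusters, the genes with a pattern most like that of CCR9 were DOCK3 (r = 0.774), the helicase gene DDX27 (r = 0.773), BCAP29 (r = 0.759), COQ2 (r = 0.758), HIPK2 (r = 0.757), GPR171 (r = 0.752), the protease gene FURIN (r = 0.752) and GBP6 (r = 0.751), among 5172 genes with a mean of at least 20 CPM. The measure was Pearson's r of log2(mean CPM + 10), and it shares the same cells and depths for both genes. The order rests on the shallow clusters. Over the 17 clusters with deeper cells the same 8 genes had r of 0.567 to 0.692, and ADAM10 led with 0.793. LZTFL1 lay below the level needed to be ranked, at a mean of 8.67 CPM, and had r = 0.813 over all clusters and 0.934 over the deeper ones.

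The third question was how CCR9 goes with clonal expansion. CD4 cells of expanded clones carried CCR9 at 32.9, 226, 170 and 210 CPM in dogs 1 to 4, and singleton CD4 cells at 8.41, 27.0, 25.8 and 27.9 CPM. Every dog was higher in expanded clones, and the groups did not overlap. CCR9 rose 7.01-fold (log2 2.81, SE 0.11, edgeR adjusted p = 2.59e-10), in a comparison that called 8.36% of 9364 genes as higher and 7.85% as lower, 16.2% in all. With 1 cell drawn from each expanded clone the log2 fold change was 2.31 (SE 0.14, edgeR adjusted p = 4.00e-12).

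CD8A cells of expanded clones stood at 29.6, 80.04, 53.6 and 57.8 CPM, and singletons at 22.6, 21.2, 24.2 and 20.7 CPM. The groups did not overlap here either, though dog 1 differed by little. CCR9 rose 2.46-fold (log2 1.30, SE 0.18, edgeR adjusted p = 0.000554; 7.23% of 8290 genes called, 3.14% higher and 4.09% lower). Taking only clones of 5 or more cells as expanded, the log2 fold change was 1.37 but missed the threshold (SE 0.42, edgeR adjusted p = 0.245).

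The rise with expansion was larger in the CD4 lineage by 1.503 on the log2 scale (SE 0.27, edgeR adjusted p = 0.0335), in a test of the difference that called 0.730% of 9311 genes, 0.537% as higher and 0.193% as lower in CD4 cells. This comparison was added after the data were seen. Without dog 3 the difference was 1.43 (adjusted p = 0.233) and without dog 4 it was 1.51 (adjusted p = 0.244). With 1 cell per expanded clone it was 0.84 (adjusted p = 0.382), all by edgeR, so that its call is lost in each of these.

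Clone size graded the CD4 shares. CCR9+ cells made up 5.38% of singleton CD4 cells as a mean over dogs, 21.0% in clones of 2 to 4 cells, 57.3% in clones of 5 to 9 and 64.9% in clones of 10 or more, the last 2 classes without dog 1. The CD8A means were 5.70%, 10.4%, 14.7% and 13.9%, and dog 1 had 2.27% in its largest clones. Singletons of both lineages in dogs 2, 3 and 4 lay between 4.83% and 7.17%, while in clones of 10 or more cells the 3 dogs had 63.2% to 66.4% in the CD4 and 12.05% to 25.8% in the CD8A lineage. Expansion also went with cluster. Of cells with 1 TRB, 72.7% to 81.6% were expanded in the 4 high clusters and 1.27% to 1.52% in naive-like clusters 0, 2 and 16. In clusters 8 and 11 the shares were 86.5% and 72.7%, with CCR9 at 5.80 and 1.64 CPM. A rise with expansion within clusters was not tested.

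**Figure D2:**
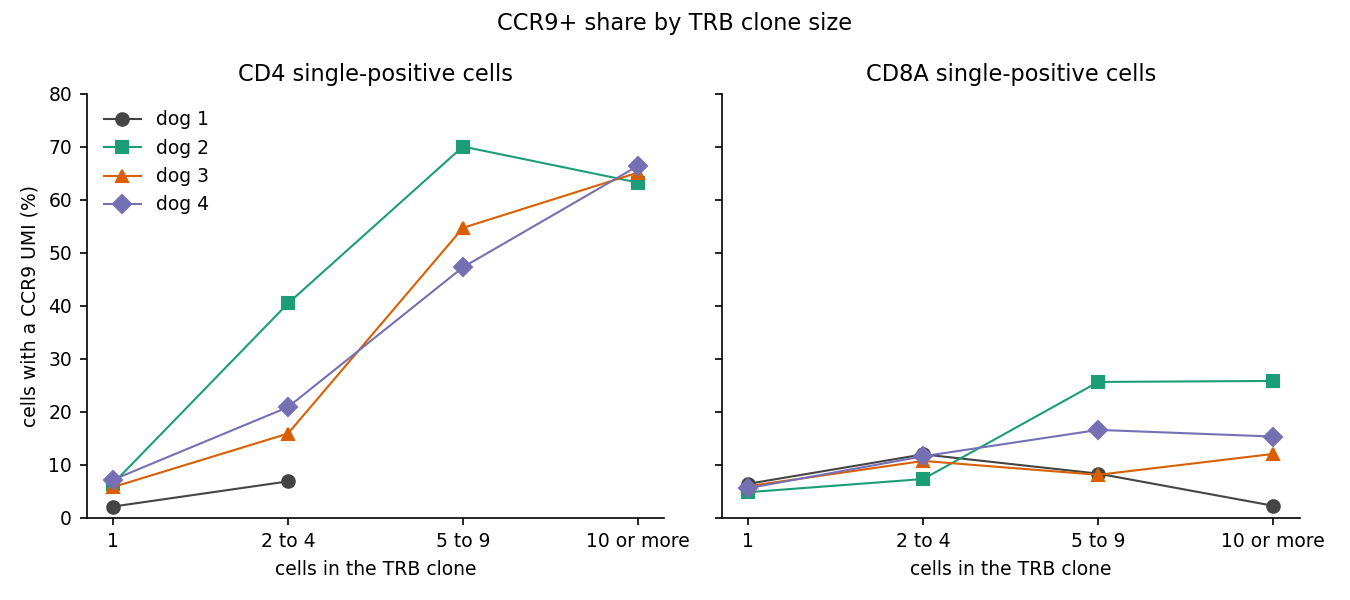
Share of CCR9+ cells (y axis, percent) by the number of cells in the TRB clone (x axis), for CD4 and CD8A single-positive cells, 1 line per dog, size classes with at least 20 cells. The CD4 lines of dogs 2, 3 and 4 rise from under 8% in singletons to over 60% in clones of 10 or more cells, while no CD8A value exceeds 26%.

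Read from the other side, 14.1%, 78.3%, 67.4% and 86.5% of the CCR9+ CD4 cells of dogs 1 to 4 belonged to expanded clones, against 4.62%, 17.0%, 16.3% and 34.3% of CCR9-zero CD4 cells. The mean difference was 43.5 ± 23.2 percentage points (SD, n = 4). All 4 dogs were higher, and the exact sign-flip permutation test gave its smallest two-sided p for 4 pairs, 0.12. In CD8A cells the shares were 56.4%, 83.7%, 84.2% and 91.3% against 53.6%, 51.8%, 72.2% and 78.3%, a mean difference of 14.9 ± 12.2 percentage points (SD, n = 4) with the same exact p of 0.12. Against CCR9-zero cells of the same depth, dog 1 showed 14.1% against 13.3% in CD4 cells and 56.4% against 65.9% in CD8A cells.

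CCR9+ cells were spread over many clones. The 540, 279 and 669 CCR9+ CD4 cells of dogs 2, 3 and 4 with 1 TRB fell into 268, 153 and 212 clones, the largest with 4.26%, 11.8% and 7.62% of them. The 64 of dog 1 fell into 63. CCR9+ CD8A cells were fewer and more concentrated, with 7.69% to 22.1% in the largest clone of a dog and 35.5% to 44.0% in its 5 largest.

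Clones differed sharply from each other. Of 159 clones of at least 10 cells, 84 were CCR9+ in at least 50% of their cells, 53 in under 5%, of which 49 had no CCR9+ cell, and 22 lay between. A lineage was given to clones with at least 3 single-positive cells and at least 2 of a lineage to each of the other. Of the 62 clones that were mainly CD4, 55 were CCR9+ in at least 50% of cells, and the median clone had 65.8%. By dog these were 15 of 16 in dog 2, 8 of 9 in dog 3 and 32 of 37 in dog 4, while dog 1 had no such clone. Of the 78 that were mainly CD8A, 47 were under 5% and 15 at 50% or more, with a median of 0%. Under 5% were 6 of 7, 6 of 10, 14 of 28 and 21 of 33 in dogs 1 to 4. The pooled counts thus weigh dog 4 most. Of the 15 CD8A clones at 50% or more, 7 were of dog 3 and had cluster 4 as their main cluster. Most of these 7 held many double-negative cells, with UMIs of neither lineage gene. The 6 clones that were mainly neither all exceeded 50%. In 13 clones, nearly all double-negative cells, fewer than 3 cells were single-positive and no lineage was given, and 8 of these were at 50% or more and 5 had no CCR9+ cell. In dog 1, 8 of 9 clones of at least 10 cells had no CCR9+ cell, 6 of them mainly CD8A and 2 without a lineage.

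**Figure D3:**
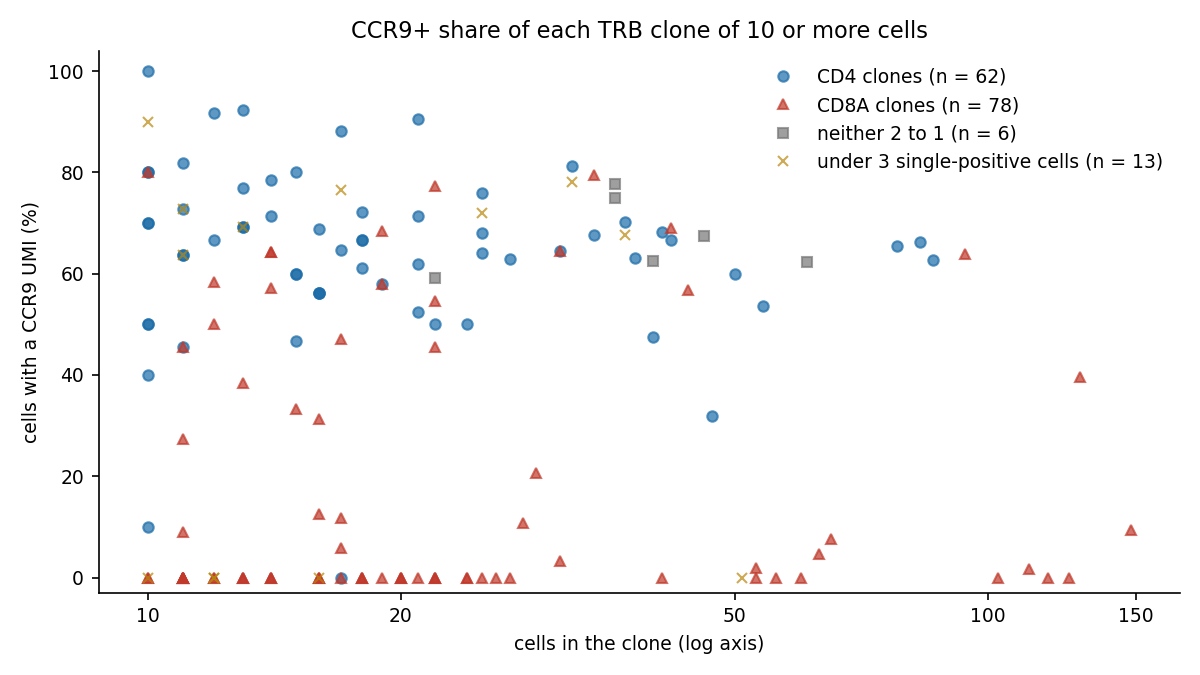
Each TRB clone of at least 10 cells by its number of cells (x axis, log scale) and the share of them that are CCR9+ (y axis, percent), with the 62 mainly CD4 clones, the 78 mainly CD8A clones, the 6 that are mainly neither and the 13 with under 3 single-positive cells. The CD4 clones, 37 of them from dog 4 and none from dog 1, gather around 65.8%, while 43 of the CD8A clones lie at 0%.

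The clones whose junctions were shown above mark these extremes. The TRBV16 and TRBJ2-1 clone of dog 4 had 55 CCR9+ cells among all its 83 cells, 66.3% with an exact 95% interval of 55.1% to 76.3%, and 69 of its cells lay in the Th1-like cluster. The TRBV15 and TRBJ1-2 clone of dog 3 had 54 of 86 and lay there with 72 cells. The TRBV3-2 and TRBJ2-5 clone of dog 2 had 29 of 54, and the TRBV25 and TRBJ1-6 clone of dog 4 had 26 of 37. The largest CD4 clones without a CCR9+ cell were small, at 12, 8 and 6 CD4 single-positive cells, which allow shares of up to 25%, 37.5% and 50%. These intervals cover counting error only, and cells of a clone are not independent samples.

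On the CD8A side, the TRBV3-1 and TRBJ2-1 clone of dog 4 had 51 CCR9+ cells of 129, 39.5%, with 124 cells in cluster 14. The TRBV7 and TRBJ2-1 clone of dog 3 had 60 of 94 and lay in cluster 4 with 86. Of its cells 56 were double-negative, 34 CD8A single-positive and 3 CD4 single-positive. The TRBV24 and TRBJ1-3 clone of dog 2 had 17 of 22. Against these, the largest CD8A clone of dog 3 (TRBV5-2 and TRBJ1-2) had 14 CCR9+ cells of 148, 9.46%, and 130 of its cells were CD8 effector-like.

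The TRBV28 and TRBJ1-6 clone of the same dog had 0 of 122 CD8A single-positive cells, which allows a share of up to 2.46%, and it too was mostly CD8 effector-like. The TRBV25 and TRBJ2-5 clone had 0 of 116, allowing up to 2.59%. Its α chain in 102 cells was TRAV9-11 with TRAJ28, the pair that the study ties to cells like mucosal-associated invariant T (MAIT) cells, and 89 of its cells were in cluster 11. Among CD8A single-positive cells with that α chain, 0 of 147, 2 of 167, 1 of 227 and 0 of 94 were CCR9+ in dogs 1 to 4, against 12.2%, 17.3%, 11.9% and 13.8% of those with another single α chain and 3.92%, 16.8%, 8% and 13.4% of those with TRAV24. The first were lower in each dog. Their median depths per dog were 3294 to 3694.5 UMIs against 3782 to 4285.5 UMIs with another single α chain.

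Use of V segments was compared over clones with a CCR9+ cell, called CCR9+ clones, and clones with a CCR9-zero cell, called CCR9-zero clones. Each clone was counted once in a group, and a clone with both kinds of cell stood in both groups. Among 12 TRBV segments at 3% or more in CD4 cells, 2 were lower among CCR9+ clones in all 4 dogs without overlap. TRBV3-1 was carried by 4.76%, 7.09%, 5.23% and 5.19% of CCR9+ clones of dogs 1 to 4 against 7.90%, 7.97%, 7.41% and 9.99% of CCR9-zero clones. TRBV18 was carried by a mean of 5.67% against 8.12%.

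In CD8A cells, 13 segments reached 3%. TRBV16 was carried by 14.8%, 15.3%, 26.0% and 19.1% of CCR9+ clones against 9.62%, 12.8%, 14.1% and 14.4% of CCR9-zero clones, with no overlap. TRBV28 lay lower in all 4 dogs, with a mean of 1.85% against 8.67%. These counts are small, 27 to 77 CCR9+ CD8A clones a dog, and no test was run. TRBV3-1, lower in CD4 cells, was here higher in all 4 dogs, with means of 8.58% against 4.51%, though the groups overlapped. Of 10 TRBJ segments at 3% or more, none was higher or lower in all 4 dogs in either lineage. Identical junctions were rare between dogs: of 15845 rearrangements, 55 occurred in 2 or more dogs, 27 of these had a CCR9+ cell, and 14 had one in 2 or more dogs. Among all 15845 rearrangements, 1211 had a CCR9+ cell. A rearrangement found in 2 or more dogs holds at least 2 cells, and the part of cell number in these counts was not tested.

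The fourth question was which genes go with CCR9 in a cell. CCR9+ and CCR9-zero cells of each dog were summed within a lineage and compared with the dog as a block, leaving CCR9 itself out. In CD4 cells 616 genes were higher and 609 lower, 6.37% and 6.29% of 9677 tested and 12.7% in all. In CD8A cells 270 were higher and 390 lower, 3.26% and 4.71% of 8289 and 7.96% in all. The list counts below stand beside these shares. Of 8231 genes tested in both lineages, 99 were higher in both and 106 lower in both, together 23.8% of those called in CD4 cells and 41.5% of those called in CD8A cells with the 53 called in opposite directions included.

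Most CCR9+ cells lay in the 4 high clusters, 50.7% to 81.8% of them in the CD4 lineage and 68.2% to 80.8% in the CD8A lineage, while most CCR9-zero cells did not. CCR9+ cells were also matched with CCR9-zero cells of the same dog, cluster and depth. Then 73 of 8240 tested genes were called in CD4 cells and 15 of 6716 in CD8A cells. A match was found for 1415 of 2031 CD4 and 574 of 715 CD8A CCR9+ cells, and the others were left out of that comparison. Matching for depth alone left 821 and 280. Without dog 2 the unmatched comparison called 388 genes in CD4 and 390 in CD8A cells, and without dog 4 it called 324 in CD8A cells. A p that misses the threshold does not show that the groups are alike. A gene is said below to hold under cluster matching where it was still called there.

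In the gut homing list, both chains of the gut integrin were higher in CCR9+ cells of both lineages. ITGA4 stood at 172, 169, 142 and 142 CPM in CCR9+ CD4 cells of dogs 1 to 4 and at 92.2, 91.9, 79.2 and 103.3 CPM in CCR9-zero cells, without overlap. It rose by 0.71 on the log2 scale (SE 0.08, edgeR adjusted p = 5.72e-06). ITGB7 stood at 227, 355, 331 and 484 CPM against 140, 190, 201 and 296 CPM, higher within each dog though the groups overlapped, and rose by 0.74 (SE 0.06, edgeR adjusted p = 2.01e-07).

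In CD8A cells, ITGA4 was at 135, 190, 146 and 145 CPM against 128, 126, 117 and 106 CPM (log2 0.35, SE 0.09, edgeR adjusted p = 0.0149) and ITGB7 at 524, 404, 347 and 631 CPM against 361, 289, 317 and 318 CPM (log2 0.50, SE 0.11, edgeR adjusted p = 0.0140). Under depth matching these became 0.32 and 0.57 with edgeR adjusted p of 0.128 and 0.158. Under cluster matching in CD4 cells, ITGA4 held at 0.27 (adjusted p = 0.0465) and ITGB7 was at 0.17 (adjusted p = 0.113). In CD8A cells ITGA4 and ITGB7 were at 0.14 and 0.21 under cluster matching (edgeR adjusted p = 0.882 and 0.321).

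ITGB1, the alternative partner of ITGA4, moved the other way. CCR9+ CD4 cells held 20.1, 45.9, 33.5 and 33.8 CPM in dogs 1 to 4, and CCR9-zero CD4 cells 170, 355, 334 and 479 CPM. It fell by 3.38 on the log2 scale (SE 0.13, edgeR adjusted p = 7.63e-07). In CD8A cells it held 52.1, 71.1, 12.4 and 59.0 CPM against 182, 352, 168 and 250 CPM and fell by 2.46 (SE 0.25, edgeR adjusted p = 0.00625).

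No CCR9+ value of ITGB1 reached the lowest CCR9-zero value in either lineage, where 4.17% of all genes in CD4 and 3.99% in CD8A cells were lower without overlap. Under cluster matching the CD4 fall held, with a log2 change of -1.78 (edgeR adjusted p = 1.66e-28). The CD8A change was -2.51 under depth matching and -1.49 under cluster matching, with edgeR adjusted p of 0.115 and 0.701.

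Counted per cell among cells of at least 2000 UMIs, 27.1%, 39.9%, 40.6% and 40.6% of CCR9+ CD4 cells held UMIs of both ITGA4 and ITGB7, against 11.1%, 13.9%, 13.7% and 19.2% of CCR9-zero cells. CD8A cells held both in 52.0%, 52.8%, 41.1% and 50% of CCR9+ cells against 26.6%, 23.6%, 22.0% and 20.7%. A UMI of ITGB1 was held by 4.29% to 7.68% of CCR9+ CD4 cells against 21.5% to 45.3%. The CCR9+ cells counted here had medians of 4438.5 to 5683 UMIs and the CCR9-zero cells of 3704 to 4092, and the part of depth in these shares was not tested.

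ITGAE, the αE chain that pairs with β7 in the epithelium, moved apart between lineages. In CD8A cells it was at 229, 164, 82.5 and 170 CPM against 110, 81.9, 73.8 and 80.5 CPM and rose by 0.78 (SE 0.13, edgeR adjusted p = 0.00102). In CD4 cells it was at 74.6, 54.7, 38.3 and 53.7 CPM against 76.2, 71.4, 68.2 and 61.1 CPM and fell by 0.41 (SE 0.10, edgeR adjusted p = 0.00798). The difference between lineages was -1.18 on the log2 scale, CD4 minus CD8A (SE 0.19, edgeR adjusted p = 0.00181). The CD8A rise held under cluster matching, at 0.56 (edgeR adjusted p = 0.00719).

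CCR6, a receptor for the mucosal chemokine CCL20, rose in CD8A cells (log2 1.38, SE 0.23, edgeR adjusted p = 0.000718) and had a log2 change of 0.33 in CD4 cells (adjusted p = 0.151). With 1 cell drawn per clone in each group, its CD8A change was 0.88 (edgeR adjusted p = 0.124). Under cluster matching it was 0.12 (edgeR adjusted p = 0.940). CXCR6 fell in CD8A cells by 0.78 (SE 0.22, edgeR adjusted p = 0.0315), and this was lost under depth matching. GPR15, a receptor that guides T cells to the colon, was not called in either lineage (log2 -0.68 and 0.16). In all, 2 of 7 measured genes of the list were higher and 2 lower in CD4 cells, and 4 higher and 2 lower in CD8A cells. The list medians were -0.35 and 0.35 against -0.0031 and 0.0042 over all genes. CCL25, the ligand, was not among the genes kept.

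**Figure D4:**
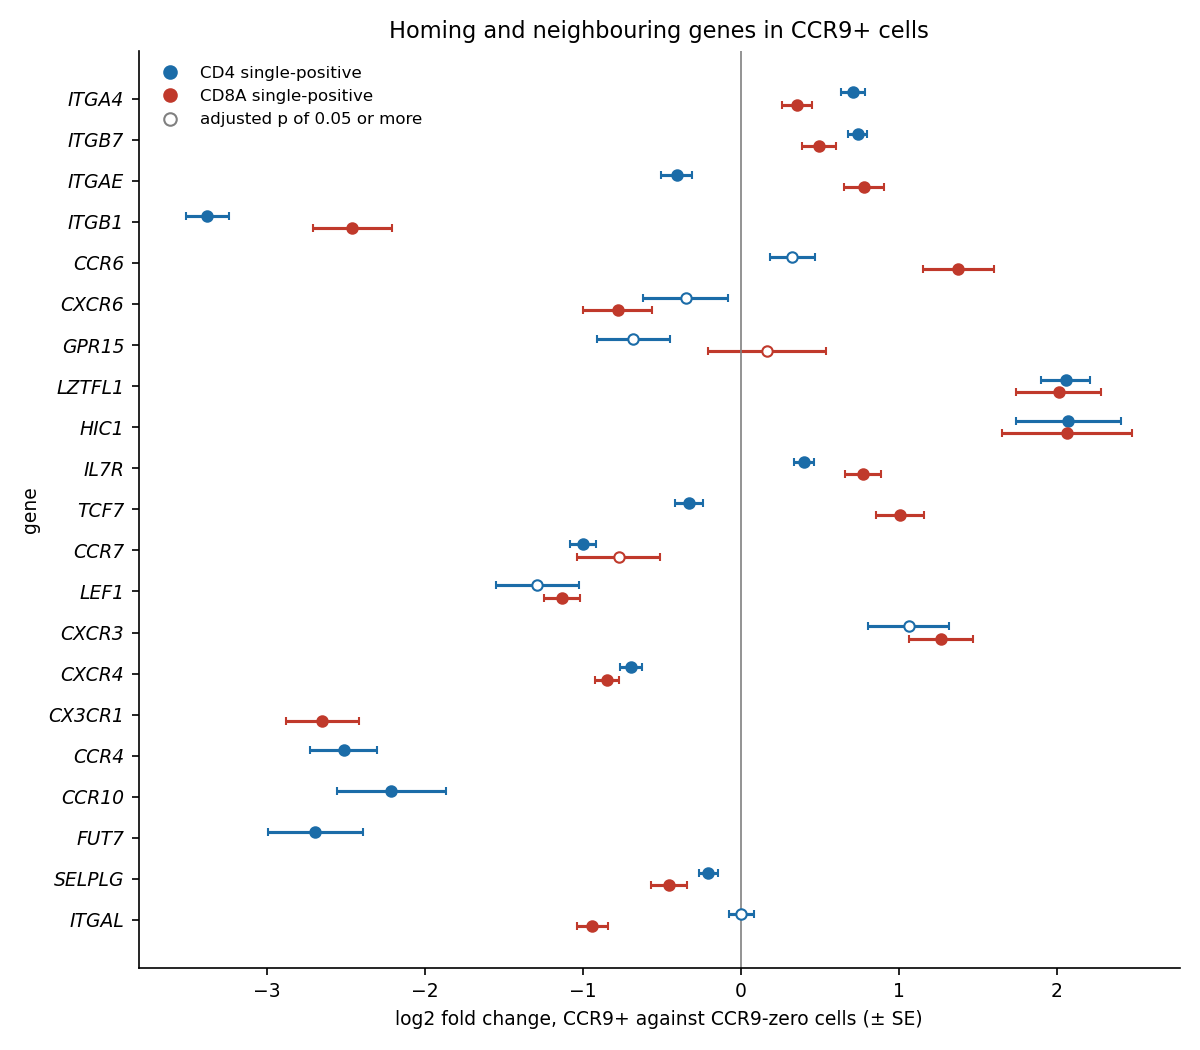
Log2 fold change (x axis, ± SE) of homing genes, chromosomal neighbours and related genes in CCR9+ against CCR9-zero cells of 4 dogs, in CD4 and CD8A single-positive cells, with open points for an edgeR adjusted p of 0.05 or more and no point where a gene was not tested. LZTFL1 and HIC1 lie near 2 in both lineages, and ITGAE and TCF7 lie on opposite sides of 0. ITGB1 lies lowest among genes shown in CD4 cells, while in CD8A cells CX3CR1 lies below it.

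LZTFL1 was among the genes that rose most in both lineages. In a newer canine assembly it is the next protein-coding gene to CCR9, past a non-coding gene, and its protein takes part in the traffic of ciliary cargo. It stood at 34.4, 24.9, 19.2 and 25.9 CPM in CCR9+ CD4 cells and at 6.48, 6.25, 4.13 and 6.49 CPM in CCR9-zero CD4 cells, a rise of 2.05 (SE 0.16, edgeR adjusted p = 1.64e-07). In CD8A cells it stood at 38.2, 32.2, 18.1 and 24.4 CPM against 3.94, 4.74, 8.05 and 6.54 CPM, a rise of 2.01 (SE 0.27, edgeR adjusted p = 1.98e-05).

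The groups did not overlap for LZTFL1 in either lineage, where 5.31% and 5.55% of all genes were higher without overlap. Under cluster matching its log2 changes were 0.58 and 0.58 with edgeR adjusted p of 0.138 and 0.650. Of the 5 measured neighbours, LZTFL1 was the only one called as higher in either lineage, and CXCR6 fell in CD8A cells. CCR1 had log2 changes of 1.001 and 1.24 that missed the threshold (edgeR adjusted p = 0.0592 and 0.0566). FYCO1, on the other side, had log2 changes of 0.15 and -0.13, and SACM1L of 0.24 and 0.13, none called. The list medians were 0.24 and 0.13. The gene models of CCR9 and LZTFL1 do not overlap in that assembly. Whether they share reads in the build used for these counts was not tested.

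Genes of the retinoic acid response gave 2 higher and 1 lower of 7 measured in CD4 cells, and 1 higher of 5 in CD8A cells, with list medians of 0.04 and 0.09. HIC1, a transcription factor induced by retinoic acid in intestinal T cells, was at 2.87, 5.96, 9.58 and 8.39 CPM against 1.44, 0.942, 1.27 and 3.09 CPM in CD4 cells. It was higher within each dog and rose by 2.07 (SE 0.33, edgeR adjusted p = 0.000342), with the CCR9+ value of dog 1 below the CCR9-zero value of dog 4. In CD8A cells it was at 10.4, 5.69, 5.77 and 12.9 CPM against 3.54, 2.96, 1.06 and 1.52 CPM and rose by 2.07 (SE 0.41, edgeR adjusted p = 0.00116), without overlap. The CCR9+ sums of dog 1 held 348579 UMIs in CD4 and 287982 UMIs in CD8A cells, so that its HIC1 values there rest on very few molecules. HIC1 was too low to be tested after matching. It passed the filter on low counts mainly through CCR9+ cells, in the CD8A lineage through them alone. A call as higher was thus favoured in advance, and the list counts above rest in part on it.

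RARA, a retinoic acid receptor, rose by 0.35 in CD4 cells (SE 0.07, edgeR adjusted p = 0.0032), and under depth matching its change was 0.19 (adjusted p = 0.126). STRA6, a retinol transporter, fell by 2.35 in CD4 cells (SE 0.53, edgeR adjusted p = 0.00582), from CCR9-zero levels of 1.94 to 3.51 CPM. It passed the filter on low counts through CCR9-zero cells alone, so that a call as lower was favoured in advance. RARG and RXRB were not called in either lineage.

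**Figure D5:**
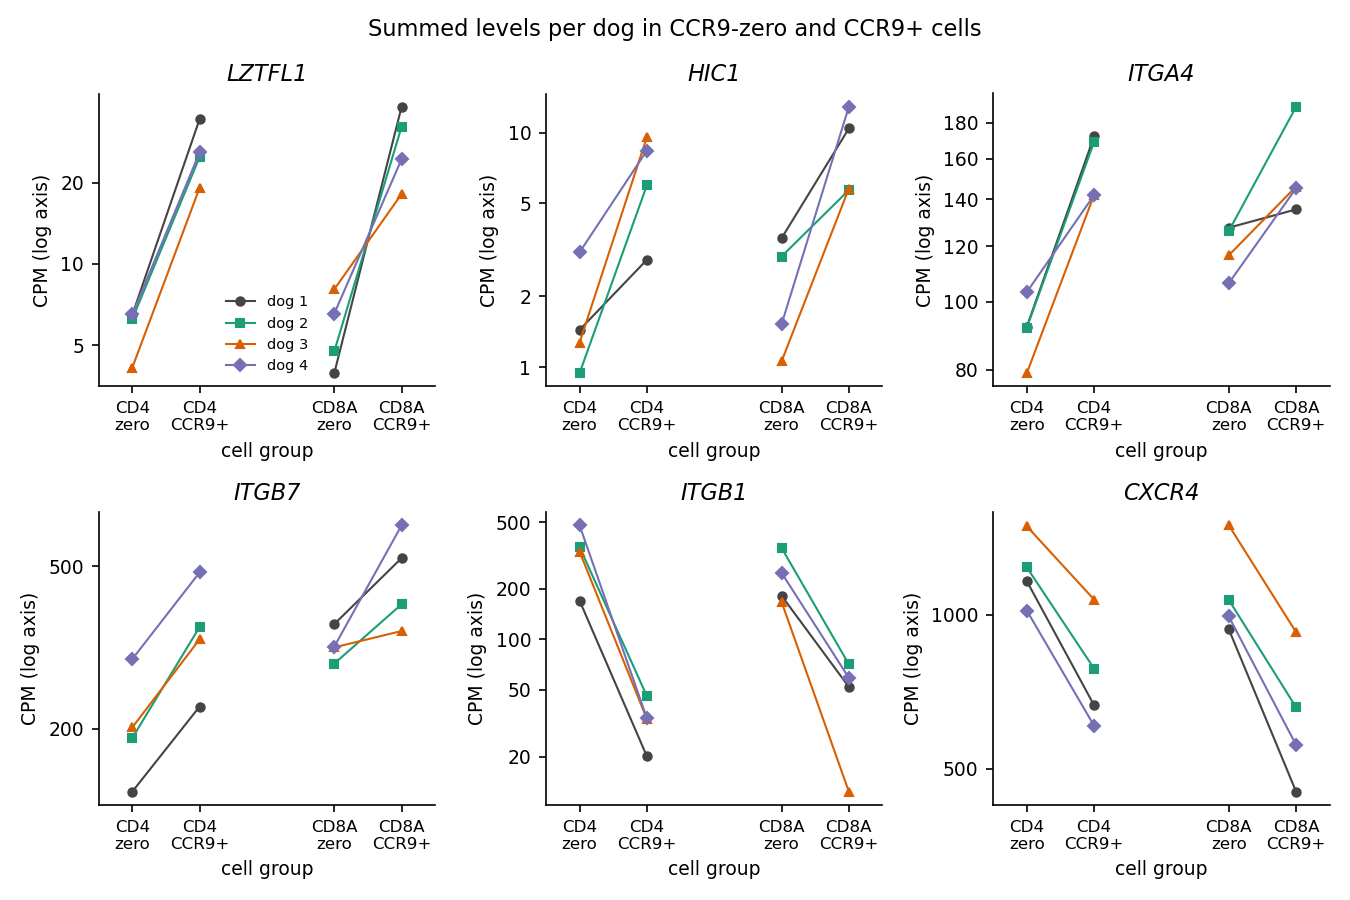
Summed level (y axis, CPM on a log scale) of 6 genes in CCR9-zero and CCR9+ cells of each dog, with a line joining the groups of 1 dog, for CD4 cells on the left and CD8A cells on the right of each panel. All 4 lines climb for LZTFL1, HIC1, ITGA4 and ITGB7 and drop for ITGB1 and CXCR4 in both lineages.

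In CD4 cells the addresses of other tissues were lower. In the skin list, 4 of 5 measured genes fell in CD4 cells and none rose, with a list median of -2.21. Of all genes tested there, 6.29% fell. CCR4 was at 2.87, 3.11, 3.72 and 2.64 CPM against 8.06, 21.5, 17.1 and 14.3 CPM, without overlap (log2 -2.52, SE 0.21, edgeR adjusted p = 3.81e-07). FUT7 fell by 2.70 (SE 0.30, edgeR adjusted p = 9.06e-06) and CCR10 by 2.21 (SE 0.34, edgeR adjusted p = 0.000267). In CD8A cells CCR4, CCR10 and FUT7 were not measured, so that the skin address was not read there. The 2 genes of the list that were measured, SELPLG and ITGAL, both fell, by 0.46 and 0.94 (edgeR adjusted p = 0.0216 and 1.96e-07). Under cluster matching none of these 4 and 2 falls was called, where 73 of 8240 and 15 of 6716 genes were called in all.

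For lymph node homing and the naive state, 1 of 8 genes was higher and 5 were lower in CD4 cells, with a median of -0.68. CCR7 fell by 0.999 (SE 0.08, edgeR adjusted p = 6.60e-07). Among expanded clones only, CCR7 was higher in CCR9+ cells, by 0.46 (adjusted p = 0.00592), against the direction over all CD4 cells.

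In CD8A cells the same list gave 2 higher and 1 lower of 7, with a median of -0.39. TCF7, the transcription factor of naive and memory stem-like cells, was at 427, 439, 222 and 428 CPM against 211, 201, 158 and 148 CPM and rose by 1.01 (SE 0.15, edgeR adjusted p = 0.0117). In CD4 cells it fell by 0.33 (SE 0.09, edgeR adjusted p = 0.0270), and the lineages differed by -1.34 (SE 0.23, edgeR adjusted p = 0.0219). IL7R, the receptor of the survival cytokine IL-7, rose in both, by 0.40 and 0.77 (edgeR adjusted p = 0.000319 and 0.00132).

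Of the other chemokine receptors, 1 of 7 measured was higher and 2 lower in CD4 cells, and 1 of 6 higher and 2 lower in CD8A cells (medians 0.47 and 0.05). CXCR4, which holds cells in the bone marrow, fell in both lineages, by 0.70 (SE 0.07, edgeR adjusted p = 3.42e-06) and 0.85 (SE 0.08, edgeR adjusted p = 7.15e-09). CXCR3, the receptor of Th1 and effector cells, was at 106, 132, 95.8 and 133 CPM against 22.2, 46.3, 54.1 and 86.9 CPM in CD4 cells. These did not overlap, yet the log2 change of 1.06 missed the threshold (SE 0.26, edgeR adjusted p = 0.0872). In CD8A cells CXCR3 rose by 1.26 (SE 0.20, edgeR adjusted p = 0.00391). CX3CR1, a receptor of effector cells that stay in the blood, fell by 2.65 in CD8A cells (SE 0.23, edgeR adjusted p = 6.35e-09).

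Of genes that carry the CCR9 signal, such as G proteins and their regulators, 1 of 11 was higher and 2 were lower in CD4 cells, and 2 of 11 were lower in CD8A cells, with medians of 0.09 and -0.14. Over all genes, 6.37% were higher and 6.29% lower in CD4 cells, and 4.71% lower in CD8A cells. The kinase gene GRK6 rose in CD4 cells by 0.39 (edgeR adjusted p = 0.000189) and RGS10 fell in both, by 2.15 and 1.20 (edgeR adjusted p = 0.000101 and 5.95e-07). GNAI2 and GNAI3, which encode the inhibitory G proteins, were not called in either lineage. RAC2, a small GTPase of cell movement, fell by 0.36 in CD8A cells (edgeR adjusted p = 0.000814). RGS1 fell in CD4 cells by 0.94 (SE 0.06, edgeR adjusted p = 1.78e-08).

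In CD4 cells the Th1 genes were higher with CCR9. Of 10 genes of that list 7 rose and none fell, with a median of 0.73, where 6.37% of all genes rose. Under cluster matching 2 of them were called, where 73 of 8240 genes were called in all. The study reports IL18R1, CXCR3, ALDOC and IFNG from these same cells in a cluster with CCR9 among its top genes. The count is thus a description and no separate support. IL12RB2, the β2 chain of the IL-12 receptor, was at 48.8, 105, 78.2 and 144 CPM against 3.096, 23.4, 15.7 and 42.9 CPM, without overlap, and rose by 2.07 (SE 0.19, edgeR adjusted p = 0.000952). IL18R1 was at 143, 163, 168 and 182 CPM against 52.1, 63.0, 63.7 and 101 CPM and rose by 1.19 (SE 0.09, edgeR adjusted p = 1.92e-06). Both held under cluster matching, at 0.50 and 0.33 (edgeR adjusted p = 0.000121 and 0.00156).

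IFNG, the cytokine of Th1 cells, rose by 2.27 (SE 0.41, edgeR adjusted p = 0.0239) and TBX21, their master regulator, by 0.65 (SE 0.15, edgeR adjusted p = 0.00783). Among expanded clones TBX21 had a log2 change of -0.09. Regulatory genes were lower, with 4 of 7 falling, none of them under cluster matching, and a median of -0.90, where 6.29% of all genes fell. Among them FOXP3 fell by 1.62 (SE 0.28, edgeR adjusted p = 0.00449). The 3 measured Th2 genes were not called in either lineage, with CD4 log2 changes of -0.21 for GATA3, -0.61 for LGALS3 and -0.01 for IL4R. Of the Th17 list STAT3 was higher and KLRB1 was among the lower genes, of 5 measured in CD4 cells, and CCR6 was higher and KLRB1 lower of 4 in CD8A cells. In CD8A cells 2 Th1 genes were higher, IFNG and CXCR3, and 2 lower, EOMES and TBX21, of 10 (median -0.21).

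The other large rises in CD4 cells included those of C9H17orf64 (log2 1.87), the activating receptor KLRK1 (1.80), TSPAN13 (1.607), the chemokine CCL5 (1.15), GPR83 (1.14), EPAS1 (1.12), PRUNE2 (1.11) and UNC93B1 (1.07). The largest falls included those of GPR25, at 0 to 14.3 CPM against 57.4 to 161 CPM (log2 -3.48), of ITGB1, and of the actinin gene ACTN1, ADAM19, CSTA, RGS10, CCDC3, ATXN7L1, ADIRF, FAM241A and CTPS1, from -2.84 to -1.50. All 12 rises and all 12 falls were also called under depth matching. Under cluster matching 3 and 6 of them were called, and among expanded clones 7 and 8.

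In CD8A cells the cytotoxic genes were lower with CCR9. Of 13 measured 8 fell and none rose, with a median of -1.83, while in CD4 cells KLRK1, CCL5 and PRF1 rose of 11 measured (median 0.21). Over all genes, 4.71% fell in CD8A cells and 6.37% rose in CD4 cells. KLRK1 is a gene that the study reports from these same cells in another cluster with CCR9 among its top genes. Under cluster matching 15 of 6716 genes were called in CD8A cells. No fall of this list was among them, and CCL5 was called as higher, at 0.26 (edgeR adjusted p = 8.7e-05). GZMA was at 62.5, 25.6, 22.3 and 45.5 CPM against 215, 189, 200 and 454 CPM, without overlap, and fell by 3.04 (SE 0.18, edgeR adjusted p = 2.25e-06). PRF1, the pore-forming protein perforin, was at 48.6, 31.3, 47.0 and 51.6 CPM against 98.8, 149, 194 and 252 CPM and fell by 2.13 (SE 0.13, edgeR adjusted p = 1.30e-10). GZMB was at 142 to 556 CPM against 1239 to 2061 CPM, without overlap, but its log2 change of -2.33 missed the threshold (SE 0.39, edgeR adjusted p = 0.0747).

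The regulators of effector cells fell with them. EOMES fell by 2.53 (SE 0.20, edgeR adjusted p = 5.43e-09), TBX21 by 1.59 (SE 0.11, edgeR adjusted p = 5.48e-11) and ZEB2 by 1.83 (SE 0.16, edgeR adjusted p = 5.43e-09). TBX21 and PRF1 rose in CD4 and fell in CD8A cells over all cells, with differences of 2.24 (SE 0.18, edgeR adjusted p = 2.84e-08) and 3.04 (SE 0.35, edgeR adjusted p = 0.00182). The CD4 rises turned under other choices, with PRF1 at -0.27 among expanded clones and -0.00089 under cluster matching and TBX21 at -0.087 and -0.10. The interaction test called 236 genes as higher and 127 as lower in CD4 than in CD8A cells, 2.45% and 1.32% of 9623 and 3.77% in all. Without dog 2 it called 135 in all, and without dog 4 it called 203.

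The largest rises in CD8A cells were those of GCSAM, at 65.98, 72.0, 37.9 and 69.9 CPM against 17.3, 13.0, 5.01 and 14.4 CPM (log2 2.35, SE 0.17, edgeR adjusted p = 1.50e-10), FCRL5 (2.27), NUGGC (2.25), the kinase gene FES (1.77), LAT2 (1.47), PHACTR2 (1.46), TNFRSF6B (1.44), SPECC1 (1.43), IFNG (1.39), CCR6 (1.38), FURIN (1.35) and MAPK15 (1.31). Several of these are known from B cells or myeloid cells, among them GCSAM, FCRL5, LAT2 and FES. GCSAM, FCRL5, FES and TNFRSF6B were also among the leading genes of cluster 14, the FCER1G+ TOX+ CD8-like cells. The other large falls were those of PI3 (-3.08), CX3CR1 (-2.65), ITGAM (-2.52), SNTB1 (-2.50), KLRB1 (-2.48), GZMK (-2.43), FASLG (-2.27) and PSD2 (-2.26). Under depth matching 12 rises and 10 falls were called, and under cluster matching none of either, with PI3, CX3CR1 and PSD2 not tested.

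Of genes tied to exhaustion, 1 of 5 rose and 1 fell in CD4 cells, and 2 of 4 rose and 1 fell in CD8A cells (medians -0.15 and 0.71). Over all genes, 6.37% rose and 6.29% fell in CD4 cells, and 3.26% and 4.71% in CD8A cells. TOX rose in CD8A cells (log2 0.94, SE 0.14, edgeR adjusted p = 0.000852), as did the receptor CD244 (0.70, edgeR adjusted p = 0.0221; 1.99 in CD4 cells, edgeR adjusted p = 4.03e-05) and, from the regulatory list, of which 3 were measured there, TIGIT (2.52, SE 0.33, edgeR adjusted p = 9.42e-05). PDCD1 fell in both lineages, by 2.05 (SE 0.22, edgeR adjusted p = 6.37e-06) and by 3.30 (SE 0.30, edgeR adjusted p = 1.05e-08), at 0 to 6.11 CPM against 18.5 to 39.3 CPM in CD8A cells. The CD4 fall of PDCD1 held under cluster matching at -1.21 (edgeR adjusted p = 0.0199).

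In the list of residency and activation, 3 of 13 rose and 3 fell in CD4 cells, and 1 of 13 rose and 1 fell in CD8A cells (medians 0.03 and -0.21). ZNF683, a regulator of tissue residency, rose in both, by 0.96 and 0.94 (edgeR adjusted p = 0.00105 and 3.22e-07), and JUNB fell in both, by 1.07 and 0.71 (edgeR adjusted p = 1.64e-08 and 7.73e-06). CD69 was not called in either (log2 0.03 and -0.23). The 5 measured proliferation genes missed the threshold in both lineages, with medians of -0.42 and 1.09, and MKI67 had log2 changes of -1.003 and 1.30 (edgeR adjusted p = 0.575 and 0.448).

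Markers of other cells were read beside these results. In CD8A cells the natural killer list summed to 431 to 593 CPM in CCR9+ and 648 to 937 CPM in CCR9-zero cells, mostly IL2RB, and 2 of its 3 genes fell, IL2RB by 0.66 and NCR1 by 3.98 (edgeR adjusted p = 2.34e-07 and 1.03e-07). In CD4 cells IL2RB alone was measured and was not called. The monocyte list, with 3 of 6 genes kept, summed to 19.9 to 47.0 CPM against 91.7 to 319 CPM in CD8A cells, nearly all ITGAM. In CD4 cells it summed to at most 5.74 CPM.

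Of the platelet list 1 of 4 genes and of the γδ list 1 of 3 was among the genes kept, at 0 to 2.47 CPM in every group. No erythroid marker was among the genes kept, and none of the genes of these lists was tested. The B cell list was carried by the gene model CD79A, at 6615 to 10334 CPM in CCR9+ and 9277 to 10653 CPM in CCR9-zero cells of both lineages, and none of its genes was called. The part of these markers in the results was not tested.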

How the data were processed

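TCRαβ+ T cells were sorted from the blood of 4 Beagles, and each dog gave a 5′ droplet library and a V(D)J library. The deposited tables hold raw UMI counts of each gene in each cell, which the authors made with Cell Ranger 5.0.1 per the submitters' processing notes and mapped to CanFam 3.1 per the study's methods, and lists of productive rearrangements per cell. The gene list deposited with dog 1 has 27980 lines while its matrix has 20257 genes, so that of the other dogs was used. Log totals per gene of dog 1 then correlated with those of dogs 2, 3 and 4 at 0.991, 0.990 and 0.989.

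Cells with 500 to 20000 UMIs and at most 10% mitochondrial UMIs and the 13155 genes seen in at least 3 cells were kept. Total counts ran from 26903305 to 35660556 UMIs per library. Counts were summed per dog, lineage and CCR9 status or clone size. They were tested with edgeR 4.0.16 (quasi-likelihood test, TMM scaling, filterByExpr with a minimum count of 10, Benjamini-Hochberg adjustment over all genes, threshold 0.05). A gene near that filter can pass it through its higher group alone, which favours a call in that direction. The dog was a block in each fit because both cell groups come from the same animal, and its number in the labels marks that animal. The dogs also differed in sex and age, which cannot be told apart from the animal. The p-values thus set the difference within a dog against its spread over 4 dogs, which edgeR moderates with the spread of all genes tested. Very small p-values rest largely on that shared spread and do not measure the spread of the gene itself over dogs. ITGB1 in CD4 cells had an edgeR adjusted p of 7.63e-07 at a log2 change of -3.38, and of 1.66e-28 at -1.78 under cluster matching. DESeq2 1.42.0 was an alternative. The fits were tested on simulated data.

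Cells were clustered with Seurat 5.3.0 in R 4.3.3 on 50 principal components at the resolution stated in the study's methods, without CCR9. Names follow marker lists by a rule set after the clusters were seen, so shares may differ from the study's. Clones rest on cells with exactly 1 productive TRB, and the minimum of 3 single-positive cells for a clone's lineage was set after seeing the data. Depth matching drew CCR9-zero cells within 10 UMI bins and cluster matching within clusters and 4 UMI bins. Intervals are 95% Clopper-Pearson intervals, the limit for a count of 0 is 3 counts of the total, and both cover counting error only. Python 3.11.15, numpy 2.4.6, pandas 2.3.3, scipy 1.17.1 and limma 3.58.1 were also used.

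Named genes were the 12 largest rises and 12 largest falls per lineage with an adjusted p under 0.05, the same direction in 4 dogs and a mean of at least 20 CPM, every list member, the 8 genes most alike over clusters, and per lineage the 5 clones with most CCR9+ cells and the 3 largest without any. The members and lists were chosen with earlier results of these data known. Some genes and a clone that this rule names are not reported here. Coordinates are not given because the gene table at hand is of another assembly.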

Additional observations from a re-analysis of the deposited data

Results flagged for a closer look

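Values of the 4 dogs were screened in 34 groups for a dog far from the others, and 4 groups held one, where chance gives about 1 in 20 groups. Dog 1 was low in CD4 singleton cells, at 8.41 CPM of CCR9, in cluster 5, at 8.73 CPM, and in cluster 19, at 418 CPM. Dog 4 was high in the Th2-like cluster 7, at 7.88 CPM. The CCR9+ shares and CCR9 levels of the whole CD4 and CD8A lineages were screened too, and no dog was flagged there. The part of sex, age or library in the values of dog 1 was not tested.

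In a set of named genes the change between CCR9+ and CCR9-zero cells differed between lineages by the edgeR interaction test. They were picked from the largest rises and falls in these same data, with ITGAE, TCF7, TBX21, RGS1 and TIGIT added. Only genes called by the test are given, which called 3.77% of all 9623 genes. A gene picked for a large change in 1 lineage tends to differ between lineages, so that the list is a description. TIGIT was not measured in the CD4 comparison. As log2 change in CD4 minus log2 change in CD8A cells, the differences were 3.43 for IL12RB2, 3.05 for EOMES, 3.04 for PRF1, 2.55 for SNTB1, 2.24 for TBX21, 1.97 for PSD2, 1.91 for KLRK1, 1.65 for PRUNE2 and 1.14 for GPR83. They were -2.92 for TIGIT, -2.76 for GCSAM, -1.46 for FAM241A, -1.46 for LAT2, -1.34 for TCF7, -1.18 for ITGAE, -1.17 for CTPS1, -1.15 for RGS1, -0.93 for PHACTR2, -0.92 for SPECC1 and -0.66 for FURIN. The change of CCR9 itself with clonal expansion differed by 1.503.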

How the results depend on the processing

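Matching CCR9+ with CCR9-zero cells of the same dog, cluster and depth cut the genes called to 73 of 1225 in CD4 cells (26 higher, 47 lower) and to 15 of 660 in CD8A cells (3 higher, 12 lower). Fewer CCR9-zero cells and 1415 of 2031 and 574 of 715 CCR9+ cells enter such a fit, and the cause of the drop was not tested further. Depth matching alone gave 280 in CD8A cells (95 higher, 185 lower) and 109 for the difference between lineages. DESeq2 called 654 and 358. With 1 cell per clone and group, a choice made after seeing the data like that of expanded clones only, 732 and 322 were called, and among expanded clones 252 in CD4 cells (74 higher, 178 lower). Among expanded clones the lineage difference of CCR9 was 1.58. The rise of CCR9 with expansion in CD8A cells was 1.37 with clones of 5 or more cells, and its difference between lineages was 0.84 with 1 cell per expanded clone. The CD8A share was 5.94% after thinning to 2000 UMIs and 4.13% with at least 2 CCR9 UMIs, since fewer cells can then count.

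The dog pairs the cell groups, and without that block 182 genes were called in CD4 cells (83 higher, 99 lower), 189 in CD8A cells (72 higher, 117 lower) and 29 for the difference between lineages. The unblocked CCR9 values were 0.61 between lineages (edgeR adjusted p = 0.617), 2.96 and 1.29 for expansion in CD4 and CD8A cells (adjusted p = 0.0369 and 0.0313) and 1.67 for their difference (adjusted p = 0.832).

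Leaving out each dog in turn gave 0.24 to 0.82 for CCR9 between lineages, called only without dog 1. It gave 2.69 to 2.88 and 1.06 to 1.46 for expansion in CD4 and CD8A cells, and 1.42 to 1.62 for their difference, lost without dog 3 and without dog 4. Calls ran from 388 to 1387 in CD4 cells, 324 to 698 in CD8A cells and 135 to 430 for the difference, lowest without dog 2, dog 4 and dog 2. CCR9+ shares ran from 11.9% to 19.99% and 9.84% to 11.8%, differences in expanded share from 37.6 to 54.9 and 9.23 to 18.9 percentage points, and clusters over 100 CPM from 4 to 5.

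The direction of some genes turned. Among expanded CD4 clones the log2 changes were 0.46 for CCR7, -0.036 for HOPX, -0.27 for PRF1, -0.087 for TBX21, 0.19 for TCF7 and -0.041 for ZNF683. Under cluster matching they were 0.018 for CCR7, -0.0047 for CD244, 0.021 for CTPS1, -0.0013 for HOPX, -0.00089 for PRF1 and -0.10 for TBX21 in CD4 cells, and 0.065 for CXCR6, -0.044 for MAPK15, 0.13 for RGS10, -0.15 for TNFRSF6B and -0.27 for ZNF683 in CD8A cells. The cause was not tested.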
